A study of Mus musculus with 2 samples.

Results

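The genes described here are 34 genes of fat cells and of fatty acid breakdown: regulators and secreted products of adipocytes, proteins of the lipid droplet, enzymes that make, release and oxidise fatty acids, and uncoupling proteins. They were chosen by name, and every probe whose RefSeq accession maps to one of them was taken. All 34 were on the array, read by 49 of 41174 gene probes, against 16766 named genes in all. Of the 34, 33 were detected, meaning that the scanner software put mutant or wild type well above background on both arrays, as were 16551 of all named genes. Ucp3 was the member that was not.

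The series compared pancreas of mouse pups carrying the allele written Glis3zf/zf (Glis3KO in the sample names) with pancreas of wild-type (WT) pups, both at postnatal day 3. Glis3 encodes a zinc finger transcription factor needed for the formation of pancreatic beta cells. RNA of 2 pups was pooled per genotype, and both pools were put on each of 2 two-colour arrays, the mutant pool in Cy5 on one and in Cy3 on the other. Each genotype is thus 1 sample, the 2 arrays measure technical error only, and no test between genotypes was possible. In whole pancreas, fewer cells of a type and less RNA per cell cannot be told apart.

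Adipocytes store triglyceride in a droplet coated by perilipins, and their identity is set by the nuclear receptor PPAR gamma (Pparg) together with C/EBP alpha (Cebpa). Lipases release fatty acids from the droplet, carnitine palmitoyltransferases carry them into mitochondria, and acyl-CoA dehydrogenases and the trifunctional protein shorten them by beta oxidation. Many of these genes are known targets of the PPAR family, which fatty acids activate, in liver, muscle and fat. Fat cells lie around and between the lobes of the pancreas, while several of the genes are also used by muscle, macrophages and capillary endothelium.

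The values below are log2 ratios, mutant over wild type, after loess normalisation, so that a positive value is higher in the mutant pool, and a gene's value is the mean of both arrays. The single Glis3 probe gave -0.02 and 0.01 and does not check the genotype labels. Transcripts of acinar cells were so abundant that 9 of 16 detected acinar markers were saturated in all 4 channels. All 8 islet hormone genes lay below 0 on both arrays, with a median of -2.06. Of all detected genes, 94.7% lay within 0.3 of 0. From the difference between the arrays, a gene's mean had a technical SD of 0.08.

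Most members differed little between the pools, and 2 stood clearly higher in the mutant: Angptl4 (1.87-fold) and Car3 (1.86-fold). A gene was called by size where its mean change was at least 2-fold with at least 1.5-fold the same way on each array. None of the 33 detected members passed in either direction, where 0.23% of all detected genes passed as higher and 0.151% as lower. Under a smaller rule, a log2 ratio of at least 0.32 the same way on each array, 2 members passed as higher and 0 as lower, beside 1.23% and 1.64% of all detected genes (204 and 272 genes). With arrays centred on their median in place of loess, 150 genes passed as higher and 389 as lower, where the members that passed were again Angptl4 and Car3. Of the detected members, 19 were above 0 on both arrays, beside 32.4% of all detected genes, 5 (Fabp5, Lep, Cpt2, Cidea and Gpd1) were below 0 on both, beside 30.5%, and 9 changed sign with the dyes. The median over the members was 0.05, beside 0.004 over all detected genes. A mean within 0.1 of 0 was found for 20 members (60.6%) and for 64.6% of all detected genes with a ratio.

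**Figure D1:**
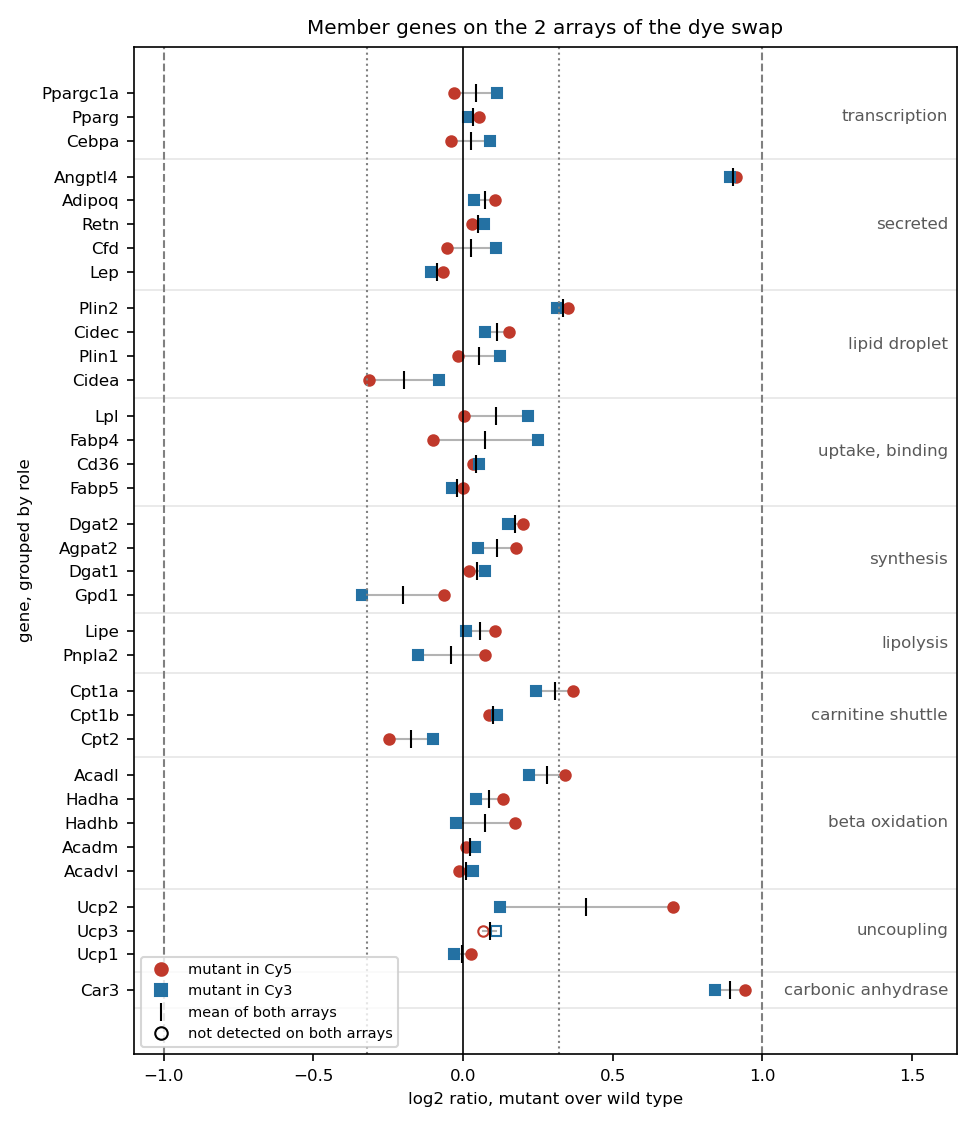
Log2 ratio of mutant over wild type (x axis) of the 34 members (y axis, grouped by role), with the mutant in Cy5 (red circles) or in Cy3 (blue squares), with their mean as a black bar. Open symbols mark Ucp3, not detected on both arrays. Dotted lines stand at 0.32 either way and dashed lines at 2-fold, and only Angptl4 and Car3 lie outside the dotted lines on both arrays.

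**Figure D2:**
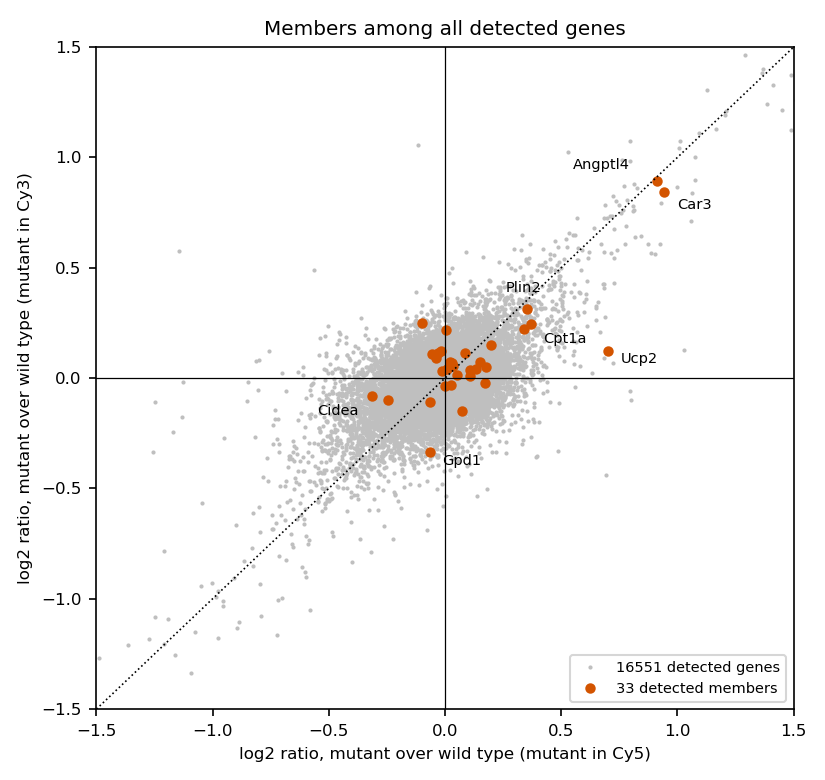
Log2 ratio of mutant over wild type with the mutant in Cy5 (x axis) against that with the mutant in Cy3 (y axis), for the 16551 detected genes, saturated ones included (grey), and the 33 detected members (orange). Axes end at 1.5 either way, so genes beyond that are not drawn, and the dotted line marks equal values. Angptl4 and Car3 lie close to the line near 0.9, while Ucp2 lies far below it.

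For regulatory sequence, the 250 bases before the annotated start were taken from RefSeq (GRCm38.p6), which held 28 such windows for 24 of the 34 members. Both strands were searched for AGGTCA, the half-site that PPARs and related receptors bind as a direct repeat, for that direct repeat with 1 base (N) between the copies, for TTGCNNAA, a core of C/EBP sites, and for TATAAA. A direct repeat holds the half-site, so the first 2 searches overlap. Plin2 and Cpt1a are shown because their ratios were among the highest of the members with a window, and Ucp1 and Lep because they mark brown and white fat cells. Angptl4 and Car3 had no window. Of the members with a window, Ucp2 had the highest mean (0.41), and Acadl (0.28) came next after Cpt1a. Neither of their windows held a match in any of these searches, while each of the windows shown did. Capitals mark the match. Plin2 lies at chr4:86670060-86670309 on the minus strand, Cpt1a at chr19:3323051-3323300, Ucp1 at chr8:83290098-83290347 and Lep at chr6:29059971-29060220, these 3 on the plus strand.
Plin2: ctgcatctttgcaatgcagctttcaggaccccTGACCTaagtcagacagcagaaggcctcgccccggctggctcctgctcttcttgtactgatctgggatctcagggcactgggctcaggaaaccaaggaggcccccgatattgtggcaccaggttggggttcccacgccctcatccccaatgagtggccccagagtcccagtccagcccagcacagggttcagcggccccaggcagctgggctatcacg
Cpt1a: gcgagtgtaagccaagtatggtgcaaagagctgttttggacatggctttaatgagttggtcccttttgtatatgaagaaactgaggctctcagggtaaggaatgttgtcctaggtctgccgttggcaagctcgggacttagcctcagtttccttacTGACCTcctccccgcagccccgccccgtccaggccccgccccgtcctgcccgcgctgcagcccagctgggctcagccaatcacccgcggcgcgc
Ucp1: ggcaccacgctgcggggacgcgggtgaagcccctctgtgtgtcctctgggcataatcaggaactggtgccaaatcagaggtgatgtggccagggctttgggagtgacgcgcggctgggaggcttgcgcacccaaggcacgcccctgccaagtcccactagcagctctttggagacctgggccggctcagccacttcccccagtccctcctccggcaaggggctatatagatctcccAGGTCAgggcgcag
Lep: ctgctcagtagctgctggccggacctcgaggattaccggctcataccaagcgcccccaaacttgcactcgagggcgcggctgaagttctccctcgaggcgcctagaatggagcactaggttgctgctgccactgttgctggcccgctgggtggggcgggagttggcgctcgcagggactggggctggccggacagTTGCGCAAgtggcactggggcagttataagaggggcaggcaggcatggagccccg
The half-site began at position -218 in Plin2, at -94 in Cpt1a (both as TGACCT, its reverse complement) and at -14 in Ucp1, counting -1 as the last base before the start. The C/EBP core began at -55 in Lep.

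The half-site occurred in 9 of the 28 member windows (32.1%), in Acadm, Acadvl, Cd36, Cpt1a, Plin2, Pparg (2 of its 3 starts), Ucp1 and Ucp3, and in 14.0% of all 32851 windows. The full direct repeat occurred in 0 member windows and in 0.0335% of all. The C/EBP core was in 4 member windows (14.3%), those of Cidec, Lep, Plin1 and one start of Pparg, against 9.56% of all, and TATAAA in 2 (7.14%), of Cebpa and Pparg, against 12.4%. The windows of Hadha (chr5:30154981-30155230) and Hadhb (chr5:30155003-30155252) overlap on opposite strands, so the genes of the 2 trifunctional protein subunits share most of this sequence. The median share of G and C bases was 58.8% in the member windows and 52.4% in all windows, and the shares of windows with a match were not adjusted for it. These matches describe letters and are no measurement of binding.

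Angptl4 encodes a secreted inhibitor of lipoprotein lipase that is made when fatty acids are high, as in fasting. Its only probe (NM_020581), which the files place at chr17:31474240-31474299 in a build not given in the sources used here, read a normalised intensity of 4606 in the mutant against 2450 in wild type with the mutant in Cy5. With the dyes exchanged it read 4361 in the mutant against 2351 in wild type. The mutant pool was the higher on each array, and the ratios of 0.91 and 0.89 were nearly equal. A mean ratio of 0.90 or more was reached by 44 of the detected genes, Angptl4 among them (0.266%). Under the alternatives run, its ratio stayed between 0.82 and 0.92, short of 2-fold in each.

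The target of Angptl4 is the enzyme lipoprotein lipase (Lpl), which frees fatty acids from circulating triglyceride at the capillary wall. The activity of the enzyme was not measured, and the RNA of Lpl did not pass either rule. Its ratios were 0.00 and 0.22 by its brightest probe and 0.26 and 0.04 by the other, so that the 2 probes differed on which array gave the higher ratio. Gpihbp1, which carries the lipase to the capillary lumen and is outside the members, had ratios of 0.07 and 0.06.

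The other secreted adipocyte factors lay near 0. Adipoq, the adiponectin gene, read normalised intensities of 86.9 in the mutant against 80.8 in wild type with the mutant in Cy5, and 91.9 and 89.6 with the mutant in Cy3. Its ratios were 0.11 and 0.04. Lep, the gene of the satiety hormone leptin, had intensities of 282.1 and 295.4 in mutant and wild type on the first array and 222.2 and 239.2 on the second, with ratios of -0.07 and -0.11. Retn, which encodes the adipocyte product resistin, read 406.8 against 398.6 and 349.7 against 333.1, the mutant first. Its ratios were 0.03 and 0.07 by its brightest probe and -0.14 and 0.15 by the other. Cfd, the adipsin gene, a complement protease made by fat cells, read 109.7 against 113.9 and 109.5 against 101.4, with ratios of -0.05 and 0.11. None of these 4 genes had a ratio beyond 0.32 either way on either array.

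The signals of these genes were low, which limits what a ratio near 0 can show. The raw mean signals of Adipoq lay between 82.8 and 106.4 in the 4 channels, where the 95th percentile of negative control spots lay between 60.8 and 76.2. Those of Cfd lay between 101.4 and 136.6 and those of Plin1 between 123.3 and 198.3. Cidec, Lep and Retn were brighter, from 185.6 to 449.7. The background correction adds an offset of 50, which pulls the ratios of dim probes towards 0. With an offset of 0 the ratio of Adipoq was 0.18, and by the scanner software it was 0.21. Both are still below 0.32. The summed normalised intensity of the 6 defining adipocyte genes (Adipoq, Plin1, Cidec, Lep, Retn, Cfd) was 1225 in the mutant against 1210 in wild type on one array, and 1275 and 1234 on the other. Retn was the largest part of each sum and Adipoq and Cfd the smallest, and every intensity includes the offset. The sums thus say little about the dim genes.

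**Figure D3:**
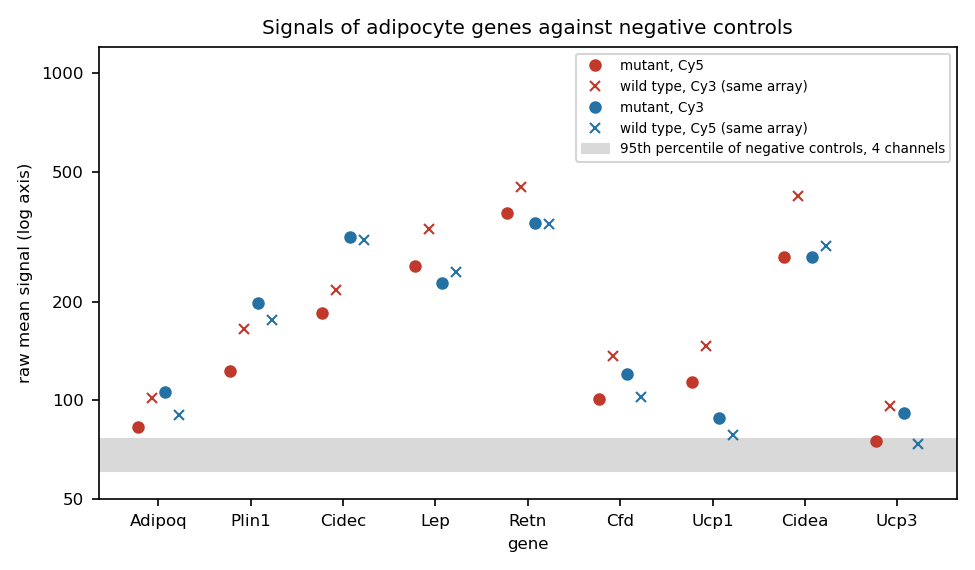
Raw mean signal (y axis, log scale) of 9 genes of white and brown fat cells (x axis) in the mutant (circles) and wild type (crosses), for the mutant in Cy5 (red) and in Cy3 (blue). The grey band spans the 95th percentiles of negative control spots in the 4 channels, from 60.8 to 76.2. Dye differences are not removed here. Adipoq, Ucp3 and, with the mutant in Cy3, Ucp1 lie just above or inside the band.

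The regulators of the adipocyte programme lay near 0. Pparg read normalised intensities of 1061 in the mutant against 1024 in wild type with the mutant in Cy5, and 958.4 and 948.2 with the mutant in Cy3. Its ratios of 0.05 and 0.02 were smaller than the technical SD, and under median centring its mean ratio was -0.03. Cebpa, its partner, had ratios of -0.04 and 0.09. Ppargc1a, the coactivator that drives mitochondrial biogenesis, had -0.03 and 0.11. All 3 means lay within 0.1 of 0.

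Among the lipid droplet proteins, Plin2 was the highest. Plin2, the perilipin that coats droplets in cells of many kinds and is not particular to fat, read 1977 in the mutant against 1550 in wild type with the mutant in Cy5, and 1920 and 1543 with the mutant in Cy3. The mutant pool was thus the higher on each array. The ratios were 0.35 and 0.31, and the second falls just short of 0.32, while with the scanner software or without the offset Plin2 passed that smaller rule as higher, as did 1.81% and 1.67% of all detected genes. A mean of 0.33 or more was reached by 278 detected genes (1.68%). Plin1, the perilipin of adipocytes, read normalised intensities of 135.5 against 137.2 and 187.1 against 171.9, the mutant first, with ratios of -0.02 and 0.12. Cidec, which enlarges droplets in white fat, read 204.3 against 183.9 and 314.4 against 299, with ratios of 0.15 and 0.07. Cidea, its relative in brown fat, read 297.6 against 370.3 and 270.0 against 285.6. Its ratios were -0.32 and -0.08, thus below 0 on both arrays but unequal between them.

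Fatty acid uptake and binding genes were near equal in the pools. Fabp4, the fatty acid chaperone of adipocytes that capillary endothelium and macrophages also make, was bright in each pool. Its brightest probe read 8228 in the mutant against 8826 in wild type with the mutant in Cy5, and 7363 and 6194 with the dyes exchanged, so that the direction changed with the dyes (-0.10 and 0.25). Its other probes gave means of 0.08 and 0.02. Cd36, the fatty acid translocase, had 0.03 and 0.05, and Fabp5, the epidermal type chaperone, 0.00 and -0.04.

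The enzymes that build triglyceride had mean ratios from -0.20 to 0.17. Dgat2, which adds the last acyl chain, had 0.20 and 0.15 by its brightest probe, while its 2 other probes averaged 0.10 and 0.02. Agpat2 had a mean of 0.11 and Dgat1 of 0.05. Gpd1, which supplies glycerol phosphate, was the lowest of all detected members, with ratios of -0.06 and -0.34, and -0.06 as the mean of its other probe. The lipases had small values too. Lipe, the hormone-sensitive lipase, had 0.11 and 0.01. Pnpla2, the adipose triglyceride lipase, had 0.07 and -0.15 by its brightest probe and 0.29 and 0.04 by the other, so its probes differed in the sign of their means.

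At the entry of fatty acids into mitochondria, the 3 carnitine palmitoyltransferases differed in direction. Cpt1a, the liver type enzyme and the regulated step of fatty acid oxidation, read 1244 in the mutant against 963.3 in wild type with the mutant in Cy5, and 1023 and 863.6 with the mutant in Cy3. The mutant was the higher on each array. Its ratios were 0.37 and 0.24, and its second probe gave 0.31 and 0.21. A mean of 0.31 or more was reached by 333 detected genes (2.01%). Cpt1b, the muscle type enzyme, read 1181 against 1112 and 902.9 against 835.5, and had 0.09 and 0.11 by its brightest probe and 0.02 and -0.11 by the other. Cpt2, which acts on the inner membrane, read 1221 against 1449 and 1191 against 1278, with the mutant first, and had ratios of -0.25 and -0.10. None of the 3 passed the smaller rule.

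The 5 enzymes of mitochondrial beta oxidation had means from 0.01 to 0.28. Acadl, the long chain acyl-CoA dehydrogenase, was the highest, with normalised intensities of 797 in the mutant against 629.8 in wild type on the first array, 748.3 and 641.7 on the second, and ratios of 0.34 and 0.22. The medium chain enzyme Acadm (0.01 and 0.04) and the very long chain enzyme Acadvl (-0.01 and 0.03) were level. Hadha and Hadhb, the subunits of the trifunctional protein whose promoter windows overlap, had 0.13 and 0.04, and 0.17 and -0.02. Of the 3 dehydrogenases, Acadl was thus the only one with a mean beyond the technical SD.

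Of the uncoupling proteins, Ucp1 carries protons across the inner mitochondrial membrane to make heat in brown fat. Ucp1 read normalised intensities of 123.8 in the mutant against 121.6 in wild type, and 75.6 and 77.2 on the other array, with ratios of 0.03 and -0.03, and a mean of 0.03 under median centring. Its raw signals on that second array were 88.2 in the mutant and 78.3 in wild type, where the 95th percentiles of negative controls in the same channels were 74.1 and 61.3, so this ratio rests on signals near the floor. Ucp3, the muscle type, was well above background in 1 of the 4 channels, and its raw signals lay between 73.5 and 96.0. Ucp2, the form of immune and many other cells, had the third highest mean of all members at 0.41, but it rests on 1 array: 490.4 in the mutant against 301.7 in the wild type with the mutant in Cy5, and 353.4 against 324.3 with the mutant in Cy3. The ratios of 0.70 and 0.12 differed by 0.58, a gap as large as in 0.369% of detected genes. Its 2 other probes had means of 0.15 and 0.05.

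**Figure D4:**
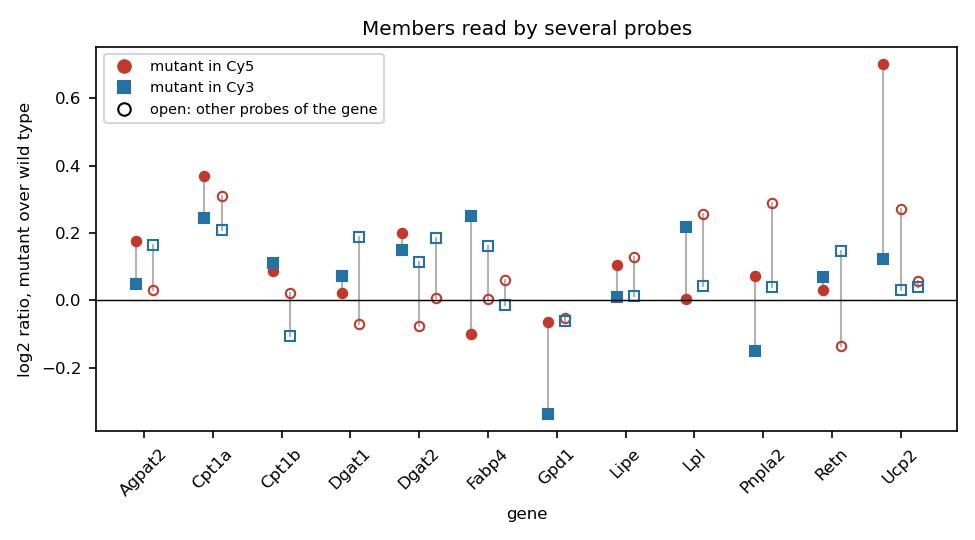
Log2 ratio of mutant over wild type (y axis) of the 12 members read by more than 1 detected probe (x axis), with the mutant in Cy5 (red circles) and in Cy3 (blue squares). Filled symbols mark the brightest probe, used for the gene, and open symbols the others. The probes of Cpt1a lie together, while those of Ucp2 are spread from 0.05 to 0.41 in their means.

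Car3 encodes carbonic anhydrase 3, a cytosolic enzyme abundant in adipocytes and in slow skeletal muscle. Its only probe (NM_007606), at chr3:14887600-14887659 in the files, read 354 in the mutant against 184.1 in wild type with the mutant in Cy5, and 300.8 and 167.9 with the mutant in Cy3. Again the mutant pool was the higher on each array. The ratios were 0.94 and 0.84, and the mean of 0.89 or more was reached by 46 detected genes (0.278%). With an offset of 0 its ratio was 1.13 and by the scanner software 1.16. Under either it passed the 2-fold rule, where 0.296% and 0.302% of all detected genes passed as higher.

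Markers of skeletal muscle moved in the same direction as Car3. Of 22 detected markers on a list of 25, drawn up with the earlier results known, 13 passed the 2-fold rule as higher and none as lower, and 20 lay above 0 with either dye. Their median was 1.34, and their summed normalised intensity was 34000 in the mutant against 9345 in wild type on one array, 28950 and 7780 on the other. Ckm, the muscle creatine kinase, had a mean ratio of 1.37, and Myh7, the slow myosin heavy chain, 2.04. The markers were not uniform, and ran from Myod1 (-0.21) to Myl1 (4.46), a myosin light chain of fast muscle. Tnni1, the slow troponin I, had 0.25 and passed neither rule by its brightest probe, and Myog had 0.01. Other members known from muscle did not pass, with Cpt1b at 0.10 and Ppargc1a at 0.04. The part of muscle RNA in the ratio of Car3 was not tested.

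Markers of 3 other cell types that use some of the members were read in the same way. Of 12 macrophage markers, 3 passed the smaller rule as higher and 10 were above 0 on both arrays, with a median of 0.31 and summed intensities of 33000 in the mutant against 21530, and 27870 against 18900. The sums are dominated by Lyz2, a lysozyme gene, whose raw signals were 16620 against 9612 and 13040 against 9086. Lyz2 (0.86), Lyz1 (0.85) and Fcgr3 (0.55) were the 3 that passed, while C1qa (-0.17) and Mrc1 (-0.13) were below 0 on both arrays, so the sums do not describe the list as a whole. Plin2 (0.33) was near that median. Ucp2 was above it by its brightest probe (0.41) and below it by the median over its probes (0.16). Fabp4 (0.07), Fabp5 (-0.02), Lpl (0.11) and Cd36 (0.04) were below the median too. Of 12 endothelial markers, 4 passed as lower, 9 were below 0 on both arrays and the median was -0.26, with sums of 13310 against 15780 and 11100 against 13200. Among those 4, Cdh5 had -0.36 and -0.33 by its brightest probe but 0.20 and -0.05 by its other. Flt1 had -0.55 and -0.56 by its brightest probe and -0.54 and -0.56 by its other. None of the 8 liver markers passed, and their median was 0.08. Alb, the albumin gene, was the highest of them with 0.61 and 0.24, and Ttr the lowest with 0.02 and -0.12. All of these markers that were on the array were detected. The part of these cell types in the members' ratios was not tested.

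Related genes outside the members were read from 3 lists, which were also chosen with earlier results known. Of 25 further genes of fatty acid oxidation, 0 passed either rule in either direction, with a median of 0.02. They ran from Etfb, an electron carrier subunit (-0.49 and -0.11), to Acads, the short chain dehydrogenase (0.33 and 0.24). Pdk4, the kinase that turns cells from glucose to fat oxidation, had 0.16 and 0.20. Ppara itself had 0.11 and -0.16. No gene of the list had a mean above that of Cpt1a.

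Of 25 further adipocyte genes, 2 were higher by the smaller rule, 1 of them also by the 2-fold rule, and none was lower. The median was 0.07. Agt, the angiotensinogen gene, had ratios of 2.27 and 2.15, a 4.62-fold higher mean, and Hp, the haptoglobin gene, an acute phase protein of liver and fat, had 0.48 and 0.49. Both encode plasma proteins that are not particular to fat cells. The summed intensity of the 8 liver markers was 2173 against 2013 and 1963 against 1767, the mutant first, and their part in these ratios was not tested. Trf was the brightest of the liver markers, with raw signals of 886.3 against 1033 and 854.4 against 786.3, so it weighs most in these sums. The lowest of the adipocyte list was Fasn, the fatty acid synthase gene, at -0.19 and -0.14. Receptors, channels and coat proteins of the fat cell had small ratios. Adrb3, the beta 3 adrenergic receptor, had 0.04 and 0.14, Aqp7, the glycerol channel, 0.12 and 0.09, and Plin4 0.17 and 0.16.

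Of 12 further brown adipocyte genes, 2 were higher by the smaller rule, and the median was 0.01. Cox8b had ratios of 1.68 and 1.52, a 3.04-fold higher mean, and Cox7a1 had 0.43 and 0.53. Both encode subunits of cytochrome c oxidase that heart and skeletal muscle use as well as brown fat. The muscle markers given beside Car3 were higher too, and their part in these ratios was not tested. Prdm16, a regulator of brown fat identity, had -0.11 and 0.07, Dio2, which activates thyroid hormone there, 0.00 and -0.07, and Elovl3, a fatty acid elongase of brown fat, -0.08 and -0.01.

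**Figure D5:**
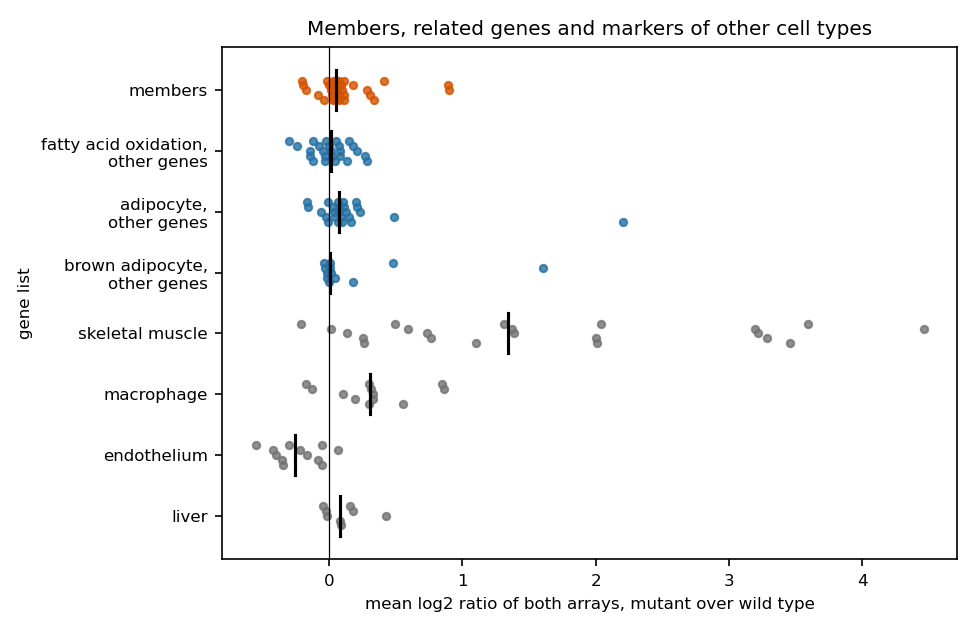
Mean log2 ratio of both arrays, mutant over wild type (x axis), of each detected gene of the members (orange), of 3 lists of related genes (blue) and of markers of 4 other cell types (grey), with each list's median as a black bar (y axis, list). The members centre on 0.05 with Angptl4 and Car3 near 0.9, the skeletal muscle markers centre on 1.34, and Agt and Cox8b stand apart from their lists.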

How the data were processed

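Two-colour Agilent arrays were read from the deposited scanner files. The authors' mean spot and median background intensity values are linear and not normalised, per the file headers. The log10 ratio (LogRatio, Cy5 over Cy3) was background-subtracted, detrended and dye-normalised by the scanner software, per the file headers. The labels name Feature Extraction 7.5 and Rosetta Resolver 6.0. The deposited series table holds log2 ratios of mutant over wild type with a median of 0 per array; scale and direction were set by comparison with the software's ratios, which it matched within 0.002 for 99.99% and 99.98% of probes.

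Intensities were corrected by normexp with an offset of 50, which shrinks the ratios of dim spots, then loess-normalised array by array, giving control spots a weight of 0 (limma 3.58.1, R 4.3.3, with the package data.table at 1.17.8). Loess takes most genes to be equal between the pools. Flagged outlier spots, 15 and 53 of 41534, were left out. Later steps used Python 3.11.15, numpy 2.4.6, pandas 2.3.3 and matplotlib 3.10.9. The steps were tested on simulated data. Normalised intensities include the offset and are compared within an array only. Median raw signals lay between 207 and 265 and backgrounds between 46.5 and 50. The number of arrays limits the precision.

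Probes were named through RefSeq (GRCm38.p6): 22064 by accession, 135 by another accession, 611 by symbol and 502 by an older symbol, with 17862 unnamed. A gene was read by its brightest unsaturated probe. With 1 sample per genotype there was no test, and values are described by size. Members past either rule of size, the defining adipocyte genes, Ucp1, Pparg and the carnitine palmitoyltransferases were named in full, other members by role, and of each related list the genes past a rule and the extremes; others named there were chosen after their values were seen. Members and lists were chosen with earlier results of these data known. The alternatives were the software's ratios, an offset of 0, median centring, no filter on dim probes, the median over probes, each array alone and the series table.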

Additional observations from a re-analysis of the deposited data

How the results depend on the processing

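With the scanner software's ratios, with a normexp offset of 0 and with the values of the deposited series table, 1 member, Car3, passed the 2-fold rule as higher, where the reported count was 0. With only the offset changed, from 50 to 0, the ratio of Car3 was 1.13 in place of 0.89. The series table repeats the software's ratios, and what sets these apart from the reported values was not tested. Over all detected genes the software's ratios gave 50 higher and 44 lower and an offset of 0 gave 49 and 42, against 38 and 25. Under the smaller rule the software's ratios gave 300 genes as higher and 436 as lower, against 204 and 272. On single arrays, 2 to 6 members passed the smaller rule as higher and 0 to 1 as lower, against 2 and 0. The array with the mutant in Cy5 alone added Acadl, Cpt1a, Plin2 and Ucp2, where 449 genes passed as higher and 812 as lower. The array with the mutant in Cy3 alone gave Gpd1 as lower, where 319 and 430 genes passed. The members' median lay between 0.03 and 0.07 under every alternative run. Of 144 values of 18 named members under 8 alternatives, 139 kept their sign. Many of these values could not change. Leaving out the filter on dim probes altered none of them, and the median over probes none of the members with 1 probe. The single arrays are the 2 parts of the reported mean, and the series table repeats the software's ratios. The count thus overstates how far the signs were checked. Ucp2 depended on array and probe, with 0.12 and 0.70 on the single arrays and 0.16 as the median over its probes, against 0.41. The 5 values that changed sign were those of Ucp1 and Pparg under median centring, and Plin1 (-0.02), Cfd (-0.05) and Ucp1 (0.03) with the mutant in Cy5 alone. Ratios of dim probes are limited by signal over background, and 1 pool per genotype leaves differences between pups unmeasured.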

Other observations

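Probes described as products of members but without a symbol that names them are in no count above. A probe described as CD36 antigen (L23108) had ratios of 0.06 and 0.13, beside 0.03 and 0.05 for the named Cd36 probe. Of 2 expressed sequence tags described as similar to the uncoupling protein UCP2, one (AW212856) had -0.11 and 0.10 and the other (AW108044) -0.23 and 0.02, so neither repeated the 0.70 of the brightest Ucp2 probe with the mutant in Cy5.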
